A study of Mus musculus with 17 samples.

Results

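The subunits of the MCM helicase, Mcm2 to Mcm7, and Tyms, the gene of thymidylate synthase, were examined in RNA of splenic regulatory T cells (Tregs) of NOD mice, which spontaneously develop autoimmune diabetes. The members were taken by gene name and make up 7 of the 47643 rows of the deposited table. Mcm3 and Mcm4 were chosen by their counts, higher in transgenic than in knockout libraries. The rest were taken as further subunits or, for Tyms, a gene of DNA synthesis. Values of the members in transgenic against knockout are therefore given as a description and without p-values. All 17 libraries came from CD4+ T cells enriched from spleen and sorted for green fluorescence of a Foxp3-GFP reporter, which every group carries, Foxp3 being the transcription factor that marks Tregs. The 6 transgenic libraries (NOD-60A Tg+, labelled Nfkbid transgenic) came from 1 sample each, the 5 knockout libraries (NOD- Nfkbid-KO) from pools of 2 samples, and the 6 control libraries (Control NOD) also from pools of 2. Comparisons with the transgenic group therefore also set unpooled against pooled libraries. The product of Nfkbid is an IkB protein of the nucleus that modulates NF-kB activity. For the promoter and cells of the transgene and for the age and sex of the mice, the sources used here give nothing.

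The 6 MCM subunits form a ring that is loaded onto replication origins in the G1 phase. Bound by Cdc45 and the GINS complex, the ring becomes the helicase that unwinds DNA ahead of the replication fork. Mcm4, Mcm6 and Mcm7 form the part of the ring with the strongest helicase activity on its own, Mcm2 also binds histones, and Mcm2 and Mcm5 border the gate through which DNA enters. Thymidylate synthase methylates dUMP to dTMP, the precursor of the thymidine that DNA synthesis uses up. Resting T cells keep these transcripts low, and E2F transcription factors induce them when a cell is activated and enters the cycle.

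Promoter sequences show what the members share at the DNA level, apart from any count. Of the 7 members, 6 matched the RefSeq promoter table (GRCm38.p6), Mcm7 with 2 windows, each running from 250 bases before the gene start to 50 bases from the start on. Mcm4 was not matched. E2F letters were searched on both strands as TTTCCCGC, TTTCGCGC, TTTGCCGC and TTTGGCGC, and the CCAAT box, the letters bound by NF-Y, as CCAAT. An E2F match lay in 744 of 32851 promoters (2.26%) and a CCAAT match in 12289 (37.4%). The 4 windows below show the members with E2F matches on whose genes counted rows lay (Mcm3, Mcm6 and Mcm7), and Tyms, which had none. Capitals mark E2F matches.
Mcm3 (chr1:20820263-20820562, minus strand): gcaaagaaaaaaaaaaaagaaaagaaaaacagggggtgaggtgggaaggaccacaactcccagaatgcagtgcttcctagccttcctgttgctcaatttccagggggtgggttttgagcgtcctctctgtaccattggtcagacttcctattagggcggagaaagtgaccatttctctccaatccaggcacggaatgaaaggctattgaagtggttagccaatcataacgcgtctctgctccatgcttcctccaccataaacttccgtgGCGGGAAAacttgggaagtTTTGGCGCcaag
Mcm6 (chr1:128359656-128359955, minus strand): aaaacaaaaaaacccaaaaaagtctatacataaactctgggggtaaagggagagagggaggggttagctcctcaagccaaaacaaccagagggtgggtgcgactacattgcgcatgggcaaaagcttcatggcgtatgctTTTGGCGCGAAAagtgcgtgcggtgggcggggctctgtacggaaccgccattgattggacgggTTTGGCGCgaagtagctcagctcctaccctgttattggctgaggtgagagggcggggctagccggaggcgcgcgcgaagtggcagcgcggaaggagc
Mcm7 (chr5:138171834-138172133, minus strand): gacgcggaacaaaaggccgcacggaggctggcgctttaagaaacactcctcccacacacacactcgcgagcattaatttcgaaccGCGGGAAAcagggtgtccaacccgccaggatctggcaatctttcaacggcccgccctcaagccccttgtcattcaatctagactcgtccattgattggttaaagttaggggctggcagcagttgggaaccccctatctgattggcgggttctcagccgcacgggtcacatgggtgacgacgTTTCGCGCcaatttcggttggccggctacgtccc
Tyms (chr5:30073576-30073875, minus strand): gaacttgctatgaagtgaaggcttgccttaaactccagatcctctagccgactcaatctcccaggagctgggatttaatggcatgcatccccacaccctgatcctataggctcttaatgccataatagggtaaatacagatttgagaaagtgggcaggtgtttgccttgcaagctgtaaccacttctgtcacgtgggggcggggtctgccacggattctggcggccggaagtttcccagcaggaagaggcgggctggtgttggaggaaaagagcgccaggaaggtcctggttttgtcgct

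With the first transcribed base counted as 1, the Mcm3 window held E2F letters at positions 20 (reverse strand) and 39 (forward strand), both just after the start. Mcm6 held 3 matches, at -110, -106 and -47, of which the first pair overlap. Mcm7 held 2, at -165 and 17, in the window shown and 0 in its other window. Mcm5 held 2 overlapping matches, at -153 and -149. Mcm2 and Tyms held 0 matches to these letters. CCAAT letters were found 3 times in the Mcm3 and Mcm5 windows, 2 times in Mcm6, 3 times and 1 time in the Mcm7 windows, 1 time in Mcm2 and 0 times in Tyms. At Mcm7 the CCAAT match at position 24 shares its first base with the E2F match at 17. A match is a run of letters and does not show that a factor binds there.

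Before any value of a member can be read, the position of its row matters, since many rows of the deposited table hold reads that do not belong to the gene they name. When the exons of all rows were moved along GRCm38 by a distance in proportion to chromosomal position, counts followed coding exons best at 0.45 kb per Mb. The mean Spearman's rho over chromosomes, across rows, was 0.466 there, 0.365 unmoved and 0.335 at the mirrored slope. A row was counted as lying on its own gene where at least 67 bp of its moved exons, and more than on any other gene, stayed on its own exons. This was judged in 7 settings of the shift, the common line and 6 local estimates. By that measure 1606 of 45617 nuclear rows lay on their own gene in all 7 settings, and 30953 in none. Local shifts were sought only within 30 kb of the common line. For many rows far along a chromosome the outcome was therefore fixed by the line, and the 7 settings are not separate judgements.

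Of the 7 members, 3 lay on their own gene in all 7 settings. Mcm4 (ENSMUSG00000022673, chr16:15623897-15637400, minus strand) was moved by 0 to 7 kb and kept 306 to 3589 of its 3589 exon bp. Mcm3 (ENSMUSG00000041859, chr1:20802968-20820312, minus strand) was moved by 0 to 13 kb and kept 186 to 3752 of its 3752 exon bp. Its placing was less clear in 3 of the settings, where nearly as many bp lay on the pseudogene Gm20587 as on Mcm3. These were the common line, with 490 bp on Gm20587, and both local estimates over 300 rows each side, with 186 bp on Mcm3 and 151 on Gm20587 by rank correlation and 381 and 348 by linear correlation. Tyms (ENSMUSG00000025747, chr5:30058202-30073617, minus strand) was moved by 4 to 14 kb and kept 257 to 769 of its 6089 exon bp. These rows thus hold at most part of their gene's reads where the shift is above 0.

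The other 4 members lay on their own gene in 0 of 7 settings. These were Mcm5 (ENSMUSG00000005410, chr8:75109569-75128439, plus strand) with a shift of 24 to 38 kb, Mcm2 (ENSMUSG00000002870, chr6:88883474-88898780, minus strand) with 33 to 43 kb, Mcm6 (ENSMUSG00000026355, chr1:128331590-128359664, minus strand) with 47 to 81 kb and Mcm7 (ENSMUSG00000029730, chr5:138164583-138172422, minus strand) with 62 to 68 kb. With the common line at 62.2 kb and a search within 30 kb of it, Mcm7 could not lie on its own gene in any setting. Its own overlap ended at 7 kb. For Mcm6, with the line at 57.7 kb and overlap up to 28 kb, this was possible only at the edge of the search. The moved exons of the Mcm6 row touched Dars, a tRNA synthetase gene, in each setting. The identities below hold only as far as the estimated shift is right.

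**Figure D1:**
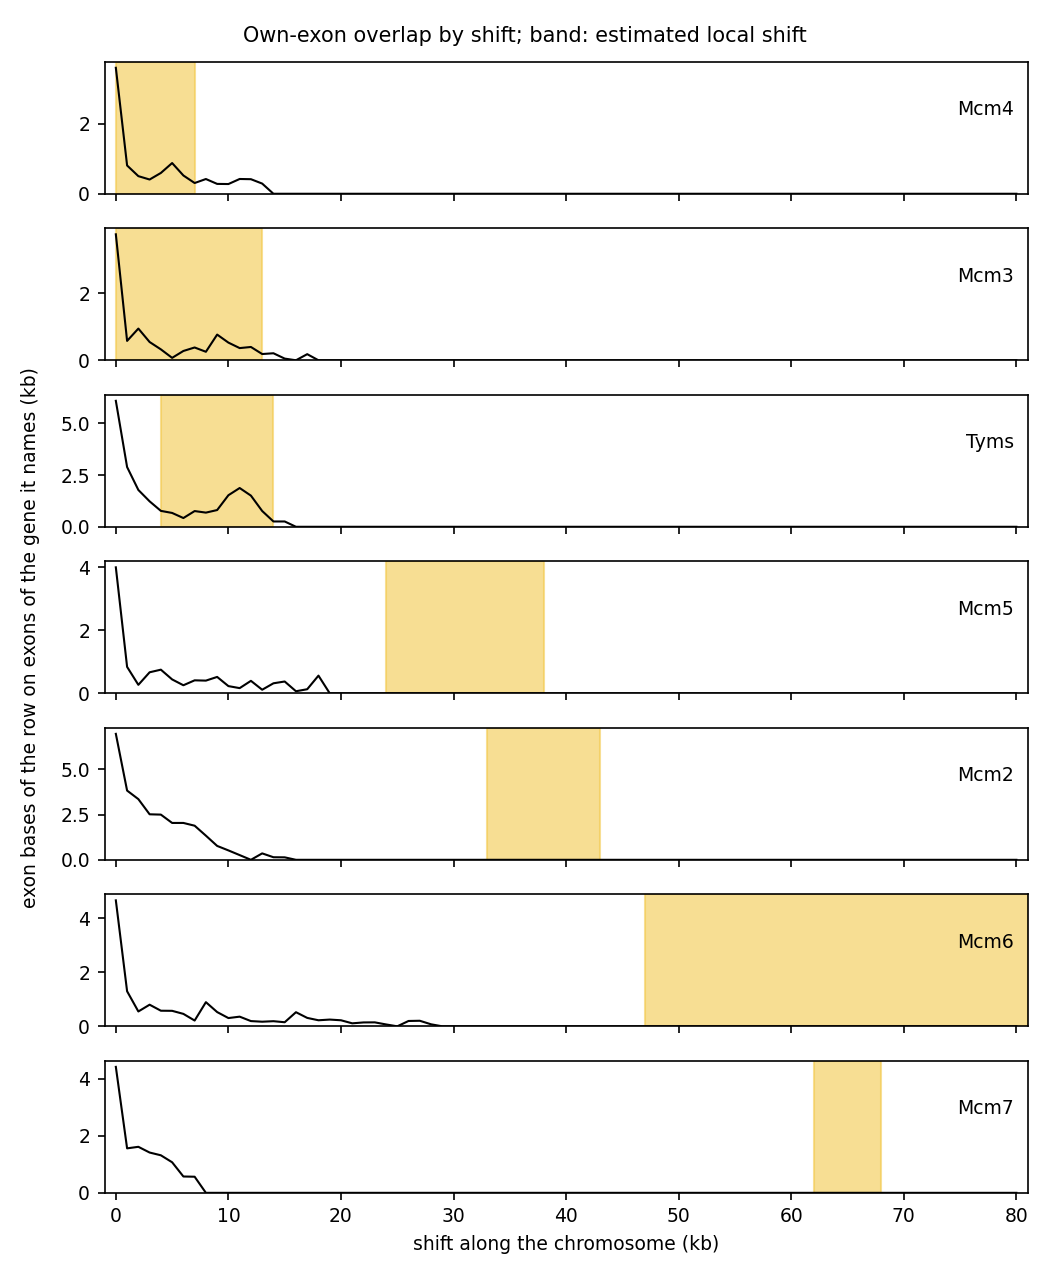
Exon bases of each member row that lie on exons of the gene it names (kb, vertical axis) against the distance by which the row is moved (kb, horizontal axis), with a band over the lowest to highest estimated local shift. The band overlaps the curve above 0 for Mcm4, Mcm3 and Tyms and lies beyond it for Mcm5, Mcm2, Mcm6 and Mcm7. Local shifts were sought only within 30 kb of the common line.

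Library totals ran from 3133388 to 4726615 counts, so that 3 counts made 0.635 to 0.957 CPM, the count scaled to the library total. CPM leave out TMM factors, the normalization factors of the test, which ran from 0.86 (knockout replicate 5) to 1.09 (control replicate 5). The order of libraries by CPM can therefore differ on the scale of the test. In no comparison was the share of all rows whose groups separate counted. Knockout replicates 2, 3 and 5 had 13615, 13476 and 13802 rows above 0, where the other libraries had 15039 to 17379, and mitochondrial shares of 25.56, 25.31 and 28.16% of counts, where the others had 19.66 to 24.81%. The Nfkbid row held 7.28 to 10.3 CPM (transgenic), 2.31 to 8.75 CPM (knockout) and 3.2 to 5.74 CPM (control) and lay on Nfkbid in 0 of 7 settings, so it does not check the genotype labels. The 9 Treg marker rows summed to 1450 to 1780 CPM (transgenic), 1160 to 1410 CPM (knockout) and 1350 to 1510 CPM (control). Of them only Il2ra lay on its own gene in all settings, and the Tnfrsf18 and Tnfrsf4 rows held at most 0.311 CPM. The 4 NK cell marker rows summed to 434 to 792 CPM (transgenic), 13.8 to 32.6 CPM (knockout) and 18.1 to 26.2 CPM (control). This was carried by the Tyrobp row at 426 to 786 CPM in transgenic libraries. The Ncr1 row held at most 0.933 and the Klrb1c row at most 2.91 CPM in any library. Of the 4 rows, 0 lay on their own gene in any setting, so the sums do not measure NK cells. The Tyrobp row may hold the reads of another gene. The part of these library and marker differences in the results below was not tested. In RNA of sorted populations, fewer cells in cycle and less RNA per cell cannot be told apart.

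Mcm4, a catalytic subunit of the ring, was the most deeply counted member. It held 121, 136, 138, 126, 141 and 172 CPM in the 6 transgenic libraries, 99.9, 57.1, 72.0, 104 and 64.7 CPM in the 5 knockout libraries and 105, 105, 100, 91.1, 109 and 123 CPM in the 6 control libraries. Of the transgenic libraries, 5 of 6 lay above every control by CPM, and the lowest, replicate 1 at 121, lay just below the highest control. The TMM factor of that replicate was 0.865, so its place can differ on the scale of the test. Means with SD were 139 ± 17.6 CPM (transgenic, n = 6), 79.6 ± 21.2 CPM (knockout, n = 5) and 105 ± 10.4 CPM (control, n = 6). Mcm4 rose in transgenic against control by 0.46 on the log2 scale (SE 0.12, adjusted p = 0.0152, quasi-likelihood test of edgeR, Benjamini-Hochberg over all 9986 rows tested). For knockout against control the log2 fold change of Mcm4, -0.30 (SE 0.12, adjusted p = 0.168, edgeR), did not pass. Knockout replicates 2, 3 and 5, the libraries with fewer rows detected, were the 3 lowest at 57.1 to 72.0 CPM, and the 2 others, at 99.9 and 104 CPM, lay among the controls. Without those 3 libraries the knockout value was -0.057 (adjusted p = 0.963, edgeR), while the transgenic value was 0.471.

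Mcm3, a subunit of the ring, held 17.5, 27.2, 23.4, 22.7, 33.3 and 30.7 CPM in transgenic libraries, 9.03, 12.6, 13.0, 11.3 and 15.7 CPM in knockout libraries and 18, 17.7, 18.7, 17.2, 23.3 and 17.3 CPM in control libraries. By CPM, every knockout library lay below every control, and 4 of 6 transgenic libraries lay above every control, with transgenic replicate 1 at the level of the controls. The TMM factors left out of CPM were 0.865 and 0.86 in knockout replicates 2 and 5, and 1.089 in control replicate 4. The separation of knockout from control need not hold on the scale of the test, and its share over all rows was not counted. Means with SD were 25.8 ± 5.77 CPM (transgenic, n = 6), 12.3 ± 2.43 CPM (knockout, n = 5) and 18.7 ± 2.32 CPM (control, n = 6). Against control the log2 fold change was 0.53 (SE 0.17, adjusted p = 0.0722, edgeR) for transgenic and -0.45 (SE 0.19, adjusted p = 0.176, edgeR) for knockout, and neither passed. The transgenic value passed with DESeq2 (0.531, adjusted p = 0.0358), in the fit of the 2 groups alone, and without knockout replicate 1 or knockout replicate 5. It also passed without knockout replicates 2, 3 and 5 together (0.538, adjusted p = 0.0174), where the knockout value was -0.882 (adjusted p = 0.125).

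Tyms held 23.2, 26.0, 24.9, 26.4, 44.8 and 31.4 CPM in transgenic libraries, 13.8, 23.2, 18.3, 13.9 and 19.6 CPM in knockout libraries and 20.1, 17.7, 21.3, 7.5, 18.2 and 21.8 CPM in control libraries. All 6 transgenic libraries lay above every control by CPM, while knockout and control libraries overlapped. The share of all rows whose transgenic libraries separate from control in this way was not counted. Means with SD were 29.4 ± 8.0 CPM (transgenic, n = 6), 17.8 ± 4.01 CPM (knockout, n = 5) and 17.8 ± 5.28 CPM (control, n = 6). Tyms rose in transgenic against control by 0.78 on the log2 scale (SE 0.24, adjusted p = 0.0484, edgeR), close to the threshold of 0.05. That call ended in 14 of the 28 alternatives run, among them leaving out any 1 transgenic library, knockout replicate 3 or any of control replicates 1 to 5. The size then ran from 0.617 without control replicate 4 to 0.83 without transgenic replicate 3. The knockout against control value was 0.15 (SE 0.25, adjusted p = 0.752, edgeR). It turned to -0.378 without knockout replicates 2, 3 and 5, to -0.011 without knockout replicate 2 and to -0.014 without control replicate 4, so no direction can be read.

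**Figure D2:**
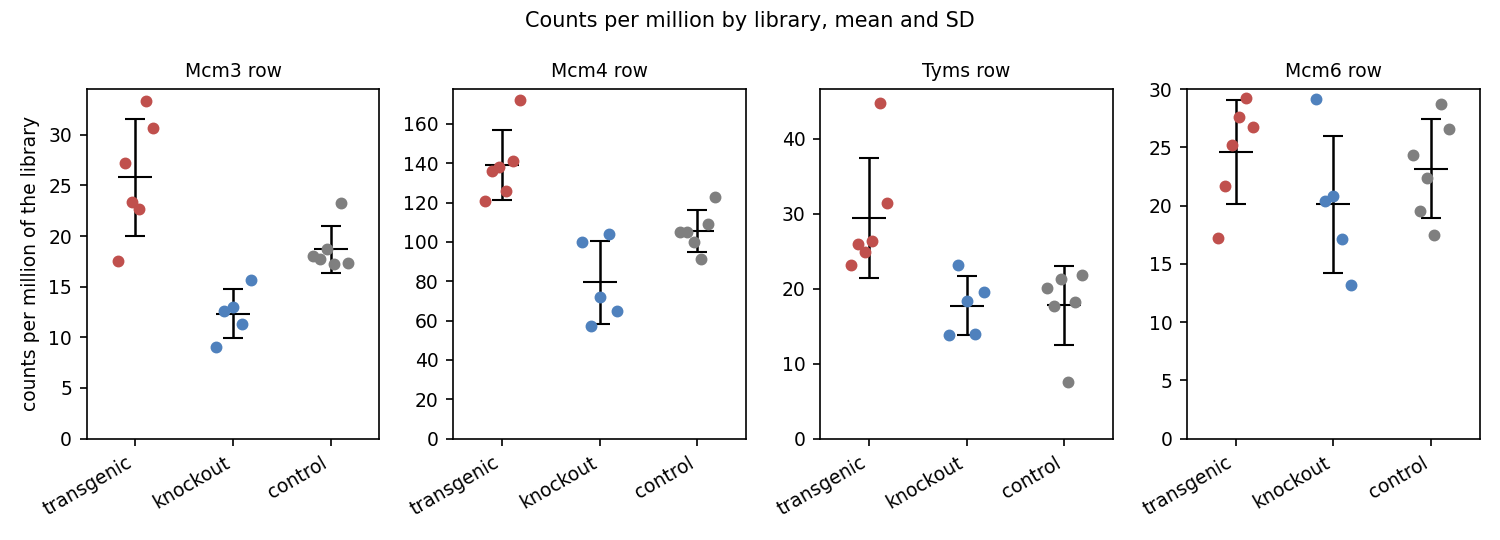
CPM, counts scaled to the library total (vertical axis, linear, from 0) in each transgenic, knockout and control library for the Mcm3, Mcm4, Tyms and Mcm6 rows, with group means and SDs as bars. By CPM, knockout libraries of Mcm3 lie below all controls, transgenic libraries of Tyms lie above all controls, and the groups of the Mcm6 row overlap. CPM leave out the TMM factors of the test, and the share of all rows that separate was not counted.

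The Mcm6 row, which the shift places off its gene, held 17.2 to 29.2 CPM in transgenic libraries (mean 24.6 ± 4.43, SD, n = 6), 13.2 to 29.1 in knockout libraries (20.1 ± 5.88, SD, n = 5) and 17.5 to 28.7 in control libraries (23.2 ± 4.25, SD, n = 6). The 3 groups overlapped over most of their range. Its log2 fold change against control was 0.14 (SE 0.17, adjusted p = 0.734, edgeR; 0.065 without control replicate 4) in transgenic and -0.08 (SE 0.18, adjusted p = 0.798, edgeR) in knockout libraries. The Mcm2, Mcm5 and Mcm7 rows held 3, 6.69 and 9.02 counts over all 17 libraries, with at most 2, 2 and 3 in any library, and did not pass the filter on low counts. Those counts say nothing of the genes themselves, since the moved exons of the rows lie elsewhere.

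In transgenic against control, 2 of the 4 member rows tested were called higher, Mcm4 and Tyms, and 0 lower, while 7.4% of all rows tested were called, 5.23% higher and 2.17% lower. This comparison shares the transgenic libraries with the one by which Mcm3 and Mcm4 were chosen, so the count is not independent evidence. Between knockout and control libraries 0 of 4 were called by edgeR, where 1.89% of all rows were called, 0.881% higher and 1.01% lower. Of the 4, Mcm3 and Mcm4 had an unadjusted p under 0.05 in edgeR, and DESeq2 and limma with voom also called 0. This comparison shares the knockout libraries with the one by which Mcm3 and Mcm4 were chosen, so those unadjusted p-values are not independent evidence. Transgenic against knockout is the comparison by which Mcm3 and Mcm4 were chosen, so their calls there, 2 higher and 0 lower, beside 10.7% of all rows (6.34% higher and 4.33% lower), are a description from which nothing is read. Their log2 fold changes were 0.97 (SE 0.19) and 0.76 (SE 0.12), and all 6 transgenic libraries lay above all 5 knockout libraries in both. The Tyms row stood at 0.63 (SE 0.25) and the Mcm6 row at 0.23 (SE 0.18). Without knockout replicates 2, 3 and 5 the values were 1.419 for Mcm3, 0.528 for Mcm4 and 1.165 for Tyms. The 3 comparisons share libraries in pairs. The median log2 fold change of the 4 tested rows was 0.50, -0.19 and 0.70 in that order of comparisons, and that of all rows was -0.013, -0.018 and 0.

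Numbers in the column headers, whose meaning no source used here states, form a low block of every transgenic library with control replicates 1 and 2, and a high block of every knockout library with control replicates 3 to 6. The labels give a single batch date for all libraries. Among libraries with low numbers Mcm4 averaged 139 CPM in 6 transgenic and 105 CPM in 2 control libraries, Mcm3 25.8 and 17.9, and Tyms 29.4 and 18.9. Among those with high numbers Mcm4 averaged 79.6 CPM in 5 knockout and 106 CPM in 4 control libraries, Mcm3 12.3 and 19.1, and Tyms 17.8 and 17.2. A fit with a term for that split, chosen after seeing the data, gave transgenic against control values of 0.455 for Mcm4 (adjusted p = 0.323), 0.678 for Tyms (adjusted p = 0.634) and 0.571 for Mcm3 (adjusted p = 0.494) in edgeR. Sizes stayed close to those above and no member was called, with 186 rows called of all tested in place of 739.

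Rows named after neighbouring genes may hold the reads of the displaced members. They were singled out after values had been seen, by position and without the groups: a row was taken where a member was the first gene under its moved exons in at least 5 of 7 settings. This gave the Podxl2 and Gm15612 rows on Mcm2, the Ubxn4 row on Mcm6, the Zkscan1 row on Mcm7 and the Hmox1 row on Mcm5. Podxl2 itself encodes a sialomucin, Ubxn4 a protein of endoplasmic reticulum degradation, Zkscan1 a zinc finger protein and Hmox1 heme oxygenase. The moved Podxl2 row (shift 33 to 43 kb) covered 241 to 2469 bp of Mcm2 and the Zkscan1 row (62 to 65 kb) 2927 to 3550 bp of Mcm7. The Gm15612 row covered 0 to 2292 bp of Mcm2, the Ubxn4 row 0 to 670 bp of Mcm6 and the Hmox1 row 0 to 1154 bp of Mcm5. On the common line the Zkscan1 row also covered 1483 bp of Cops6. The Gm15612, Ubxn4 and Zkscan1 rows are annotated on the strand opposite to the member under them, and whether counting used strand is stated in no source used here. The Podxl2 and Gm15612 rows lie on the same gene and are not independent.

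The Podxl2 row, placed on Mcm2, held 144, 182, 169, 181, 225 and 229 CPM in transgenic, 113, 88.7, 122, 103 and 98.4 in knockout and 129, 126, 135, 128, 156 and 120 in control libraries. Of the transgenic libraries, 5 of 6 lay above every control, and all 6 above every knockout library. It rose in transgenic against control by 0.57 (SE 0.10, adjusted p = 0.000578, edgeR), and this call also held with the term for header numbers (0.605, adjusted p = 0.0364). Its knockout against control value was -0.20 (SE 0.10, adjusted p = 0.267). The Gm15612 row, also placed on Mcm2, held 57.4, 58.4, 46.7, 59.3, 82.8 and 81.6 CPM in transgenic, 20.9, 36.9, 29.9, 32.8 and 26.3 in knockout and 43.0, 28.1, 35.2, 36.9, 37.9 and 27.0 in control libraries. By CPM all its transgenic libraries lay above every other library, but the share of all rows that separate in this way was not counted. The Gm15612 row rose against control by 0.96 (SE 0.17, adjusted p = 0.000677, edgeR), with knockout at -0.09 (SE 0.18, adjusted p = 0.782).

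The Ubxn4 row, placed on Mcm6, held 137, 163, 139, 154, 205 and 192 CPM in transgenic, 75.3, 70.5, 82.3, 95.6 and 67.2 in knockout and 135, 107, 105, 103, 119 and 98.4 in control libraries. By CPM the 3 groups did not overlap, with transgenic highest and knockout lowest, but the share of all rows that separate in this way was not counted. The Ubxn4 row rose in transgenic against control by 0.63 (SE 0.11, adjusted p = 0.000544, edgeR). In knockout against control it stood at -0.38 (SE 0.12, adjusted p = 0.0835, edgeR). This passed with DESeq2 (-0.37, adjusted p = 0.0468) and without knockout replicate 4 (-0.426, adjusted p = 0.0371, edgeR). The Zkscan1 row, placed on Mcm7, held 426, 471, 459, 463, 506 and 581 CPM in transgenic, 341, 311, 331, 283 and 300 in knockout and 390, 344, 434, 366, 385 and 367 in control libraries. By CPM, its highest control, replicate 3, lay above the lowest transgenic library, and every knockout library lay below every control. With TMM factors of 0.865 and 0.86 in knockout replicates 2 and 5, the latter need not hold on the scale of the test. The share of all rows that separate in this way was not counted. The Zkscan1 row rose in transgenic against control by 0.41 (SE 0.09, adjusted p = 0.00547, edgeR), with knockout at -0.14 (SE 0.10, adjusted p = 0.376).

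In transgenic against knockout these rows stood at 0.77 (Podxl2), 1.05 (Gm15612), 1.01 (Ubxn4) and 0.55 (Zkscan1) on the log2 scale. In that comparison 6.34% of all rows tested were called higher by edgeR. In all 4 rows every transgenic library lay above every knockout library, but the share of all rows that separate in this way was not counted. With the term for header numbers the Gm15612, Ubxn4 and Zkscan1 calls against control ended, at 0.895 (adjusted p = 0.092), 0.493 (adjusted p = 0.156) and 0.447 (adjusted p = 0.121). The Hmox1 row, placed on Mcm5, held 1.23 to 2.73 CPM (transgenic), 0 to 3.1 CPM (knockout) and 0.581 to 1.56 CPM (control) and did not pass the filter. The Lct row, named after the intestinal enzyme lactase, had Mcm6 as its first gene in 2 of 7 settings and was not taken. It covered 0 to 1008 bp of Mcm6. Its mean CPM with SD was 87.0 ± 19.5 (transgenic, n = 6), 57.3 ± 17.2 (knockout, n = 5) and 67.8 ± 4.6 (control, n = 6). In transgenic against control it stood at 0.41 (SE 0.14, adjusted p = 0.072, edgeR) and did not pass. The short Gm43493 row had Mcm7 as its first gene in 2 of 7 settings and was also not taken. It averaged 4.35 CPM in transgenic libraries and stood at -0.13 against control (SE 0.37, adjusted p = 0.902, edgeR).

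**Figure D3:**
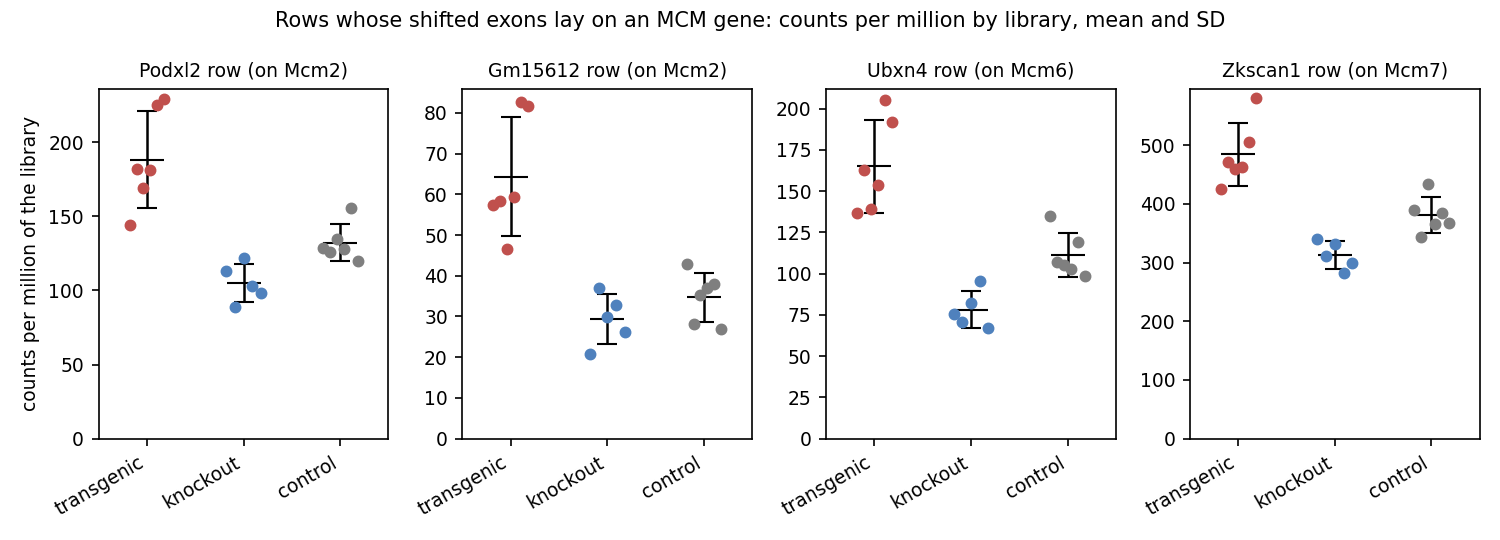
CPM, counts scaled to the library total (vertical axis, linear, from 0) in each transgenic, knockout and control library for the 4 rows whose moved exons lay on Mcm2, Mcm6 or Mcm7, with group means and SDs as bars. All transgenic libraries lie above all knockout libraries in each panel, a separation whose share over all rows was not counted.

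**Figure D4:**
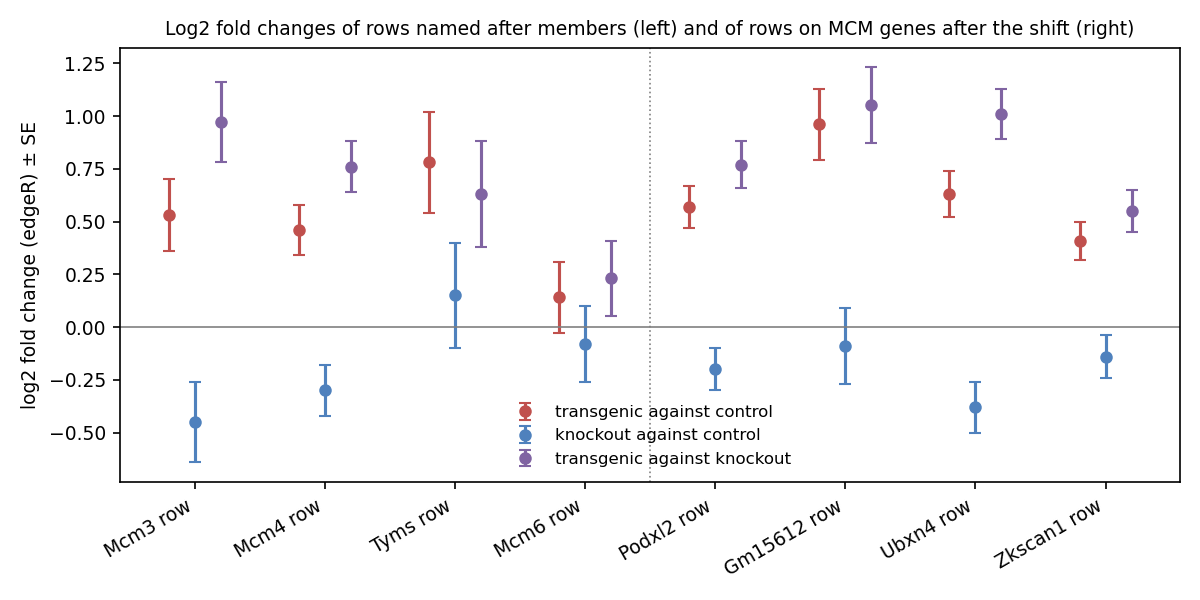
Log2 fold changes with standard errors (vertical axis) for 8 rows (horizontal axis) in transgenic against control, knockout against control and transgenic against knockout. The transgenic against control values run from 0.14 (Mcm6 row) to 0.96 (Gm15612 row), and the knockout against control values from -0.45 (Mcm3) to 0.15 (Tyms).

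Other genes of DNA replication were read from 6 lists, chosen with earlier results of these data known. Transgenic against knockout is the comparison by which Mcm3 and Mcm4 were chosen. Calls and adjusted p-values of list rows, there and in the comparisons that share its libraries, are not independent evidence. Of the origin licensing list, 9 of 13 rows were tested and 2 were called higher in transgenic against control, beside 5.23% of all rows. The same 2 were called higher in transgenic against knockout, beside 6.34% of all rows. They were Mcm10, which helps to activate the loaded ring, and the Gmnn row, named after the licensing inhibitor geminin. Mcm10 lay on its own gene in all 7 settings and held 50.5, 38.0, 28.7, 34.6, 41.1 and 45.5 CPM in transgenic, 5.36, 19.0, 12.7, 4.62 and 24.1 in knockout and 26.9, 15.4, 21.0, 18.1, 20.1 and 14.1 in control libraries. By CPM every transgenic library was above every other library, but the share of all rows that separate in this way was not counted. Knockout replicate 5, at 24.1 CPM, had a TMM factor of 0.86, so this need not hold on the scale of the test. Mcm10 rose by 1.12 against control (SE 0.32, adjusted p = 0.0317, edgeR) and by 1.48 against knockout (SE 0.34, adjusted p = 0.00698). The Gmnn row, on its own gene in 1 of 7 settings, rose by 0.92 (adjusted p = 0.0253, edgeR) and 1.84 (adjusted p = 0.00014) in the same comparisons. The origin recognition genes Orc3 and Orc4, both on their own gene in all settings, stood at 0.14 (SE 0.14) and 0.32 (SE 0.22) in transgenic against control and did not pass. The median of the 9 rows was 0.14 against control, beside -0.013 over all rows.

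Of the origin firing list, 5 of 11 rows were tested, 0 of them on their own gene in all settings. The Ticrr row, named after the treslin gene, was its only call, with 0.71 against control (adjusted p = 0.0297, edgeR) and 1.21 against knockout (adjusted p = 0.000654). Of all rows, 5.23% were called higher against control and 6.34% against knockout. Of the replisome list, 17 of 29 rows were tested and 1 was called higher in transgenic against control, a share near the 5.23% of all rows. This was Lig1, the ligase that joins Okazaki fragments, on its own gene in all settings. Lig1 held 17.8, 22, 23.4, 17, 28.6 and 20.6 CPM in transgenic, 12.4, 13.2, 11.9, 12.1 and 7.84 in knockout and 11.4, 5.23, 13.3, 13.1, 12.1 and 8.77 in control libraries. By CPM all transgenic libraries lay above all others, but the share of all rows that separate in this way was not counted. Lig1 rose by 1.08 against control (SE 0.20, adjusted p = 0.00117, edgeR) and by 0.84 against knockout (SE 0.21, adjusted p = 0.0128). Against knockout 1 row of the list was called higher and 2 lower, beside 6.34% and 4.33% of all rows. The 2 lower were the Rfc2 and Prim1 rows, named after a clamp loader subunit and the primase subunit. They stood at -0.66 (adjusted p = 0.00401, edgeR) and -0.62 (adjusted p = 0.0395, edgeR), both on their own gene in 0 settings.

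Of the list of E2F factors and G1/S control, 14 of 25 rows were tested, and 3 were called higher and 1 lower in transgenic against control, beside 5.23% and 2.17% of all rows. In transgenic against knockout 3 were also called higher and 1 lower, beside 6.34% and 4.33% of all rows. Cdk6, the cyclin D kinase that acts early in G1, lay on its own gene in all settings. Means with SD were 572 ± 112 CPM (transgenic, n = 6), 326 ± 48.2 CPM (knockout, n = 5) and 362 ± 45.7 CPM (control, n = 6). By CPM transgenic replicate 1, at 381, lay among the controls, which reached 402, and the other 5 lay above every control. The TMM factor of that library was 0.865, so its place can differ on the scale of the test. Cdk6 rose by 0.72 against control (SE 0.10, adjusted p = 4.91e-05, edgeR) and by 0.74 against knockout (SE 0.11, adjusted p = 6.1e-05). E2f3, an activating E2F factor, on its own gene in 5 of 7 settings, rose by 1.06 (SE 0.24, adjusted p = 0.00611, edgeR) and 1.04 (SE 0.25, adjusted p = 0.00938). The Ccnd2 row (cyclin D2) rose by 1.16 and 0.77 and the Tfdp2 row (an E2F partner) fell by 0.51 and 0.71 in these comparisons, on their own gene in 0 and 1 of 7 settings.

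Of the nucleotide synthesis list, to whose pathway Tyms belongs, 11 of 20 rows were tested and 0 were called by edgeR in any comparison. Of all rows, 7.4% were called in transgenic against control, 1.89% in knockout against control and 10.7% in transgenic against knockout. With so few list rows, 0 calls is not set apart from those shares. Of the 11 rows, 0 lay on their own gene in all settings. Of the list of mitosis and proliferation, 12 of 24 rows were tested, and 0 were called in transgenic against control, beside 7.4% of all rows. Their median was -0.13. Against knockout the Kif20a row was its only call, at 0.44 (adjusted p = 0.0269, edgeR), beside 10.7% of all rows. Neither count is set apart from the share over all rows. Across all 6 lists edgeR called 0 rows in knockout against control, where 1.89% of all rows were called. At so low a share, the absence of calls says little of these lists. The medians of the lists in transgenic against control ran from -0.13 to 0.14, beside -0.013 over all rows.

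Rows whose pattern was most like that of Mcm3 or Mcm4 were sought among 1044 rows tested that lay on their own gene in all settings. The measure was the mean absolute difference of log2 CPM over the 17 libraries, each row centred on its mean. Nearest to Mcm4 were Naa40 (0.158), Nsd2 (0.159), Nav2 (0.162), Ssr1 (0.168) and Lamp2 (0.174), where a flat row would be at 0.304 and the median row was at 0.406. Nearest to Mcm3 were Prodh (0.201), Nav2 (0.221), Ssr1 (0.231), Zc3h12d (0.232) and Cdk6 (0.237), where a flat row would be at 0.349 and the median row was at 0.477. Nav2 and Ssr1 stood in both lists.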

How the data were processed

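Poly(A) RNA libraries of 17 Treg samples were sequenced with 67 bp reads and 9 bp molecular identifiers, per the labels' protocols. Gene-level expected counts were deposited by the authors, and the submitters' processing notes name Bowtie2 and GRCm38. No source used here says whether identifiers served to remove duplicates, so depth limits cover counting error only. Of the deposited expected counts, 5.87% were not whole, and they were rounded for testing. CPM was the count over the library total, without TMM factors. Symbols and exons came from an annotation of GRCm38 (47224 rows matched).

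Tests were run in R 4.3.3 with edgeR 4.0.16 (quasi-likelihood F test), TMM factors, filterByExpr and all 17 libraries fitted together, adjusted by Benjamini-Hochberg over 9986 rows. SEs are the log2 fold change over the root of F. On simulated data for transgenic against control (9743 rows), the test recovered 57 of 100 rows given a log2 change of 1 and 95 of 100 given 2, with 9 false calls.

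The shift of rows was estimated by rank or linear correlation of log2 CPM per kb with the share of coding exon under moved exons, over 75, 150 or 300 rows each side, within 30 kb of the common line, in steps of 1 kb. It used the mean of all libraries. Settings were tried on the member rows first, and those that failed on simulated data were dropped. On simulated tables with a shift, 34 of 42 estimates lay within 3 kb, with errors up to 11 kb, and without one 42 of 42.

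The members and lists were chosen with earlier results of these data known. Named genes were all members, called list rows (up to 4 per list and comparison, by adjusted p) and the 5 rows nearest Mcm3 and Mcm4, with predicted, clone-named and receptor-segment rows counted only (29). Library names carry identifiers that differ between the libraries of a group. Nothing in the labels says that these are separate animals, so p-values reflect only how these libraries vary. None of the 40 pairs of libraries within groups agreed within sampling noise. Alternatives were RLE and upper quartile factors, a stricter filter and none, voom in limma 3.58.1, DESeq2 1.42.0, unrounded counts, the 2 groups compared alone, a replicate block and libraries left out.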

Additional observations from a re-analysis of the deposited data

Results flagged for a closer look

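A library far from the others of its group was found in 2 of the 27 sets of group values looked at. The rule used, Dixon's test, has a nominal rate of about 1 in 20 sets, which was not measured on these data. Control replicate 5 held 23.3 CPM in the Mcm3 row, above the other 5 controls at 17.2 to 18.7 CPM. Control replicate 4 held 7.5 CPM in the Tyms row, below the other 5 controls at 17.7 to 21.8 CPM. Without control replicate 4 Tyms in transgenic against control stood at 0.617 (edgeR adjusted p = 0.0891), and the call ended.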

How the results depend on the processing

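With no shift, 7 members by construction lie on their own gene, in place of 3. Members called in transgenic against control, 2 as reported, were 1 with upper quartile factors, 0 with the term for header numbers and 1 to 3 with single libraries left out; in transgenic against knockout, 0 with that term. Mcm4 in transgenic against control kept its call in 27 of 28 alternatives (0.408 to 0.532). Rows called in transgenic against control, 739 as reported, were 1226 in the fit of 2 groups, 1348 without knockout replicates 2, 3 and 5, 186 with the header term and 529 to 876 with single libraries left out. In knockout against control, 189 as reported, they were 571 without a filter, 605 with DESeq2, 76 in 2 groups, 43 without those replicates, 108 with the header term and 88 (without knockout replicate 5) to 1124 (without knockout replicate 4). In transgenic against knockout, 1065 as reported, they were 651 in 2 groups, 130 with the header term and 735 to 1641 (without transgenic replicate 1). Replicate numbers in the titles pair no libraries (r of deviations from -0.517 to 0.364, over 0.1 in 1 of 16 pairs). The replicate block gave 67 rows in knockout against control and 670 in transgenic against knockout, and changed no member's call. In knockout against control Tyms turned to -0.378 without knockout replicates 2, 3 and 5 (single libraries: -0.014 to 0.254), the Mcm6 row ran from -0.207 to 0.005, and the Gm15612 row from -0.231 to 0.035. The cause was not tested. Levels of 7.5 to 44.8 CPM limit the precision for Mcm3 and Tyms.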
